A study of Homo sapiens with 10 samples.

Results

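The methylated regions of HEK293T cells labelled K rep KO were set against those of HEK293T cells labelled WT. Every peak on chromosomes 1 to 22 and X of both deposited peak lists was included, and a peak was called shared when it overlapped a peak of the other list by at least 1 bp. That gave 59098 K rep KO peaks and 30732 WT peaks, 89830 of the 284960 peaks in the 5 lists used of the series.

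Methylated DNA immunoprecipitation captures sonicated genomic fragments with an antibody against 5-methylcytosine, so peaks mark stretches where methylated cytosines are dense. In mammalian genomes DNA methylation sits mostly at CG dinucleotides, is common along the bodies of transcribed genes and over repeats, and is sparse at CG-rich promoters, where it accompanies silencing. KCNQ1OT1 is a long non-coding RNA read antisense to KCNQ1 from an imprinted domain of chromosome 11, and it is known for silencing neighbouring genes on the chromosome from which it is read.

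HEK293T is a human embryonic kidney line that carries the SV40 large T antigen. The conditions were WT, EV, KD (a knockdown of KCNQ1OT1_K per the series' design text, with a list named K-KD), K non-rep KO and, compared here, K rep KO, each with 1 immunoprecipitated library and 1 input library, and the labels give the same culture medium for all and name no further treatment. The labels do not spell out K or rep, and they give neither the deleted stretch nor whether the knockout is 1 clone, so the names are kept as given. Peak names inside the K rep KO list carry the prefix MeDIP-L-KO, so its assignment rests on the name of the list. These lists hold no RNA and no reads over the deletion, so neither the knockout nor the cell type could be checked against markers. As each condition has a single list, nothing shows how far replicates would spread, no test was made, and intervals cover counting error only.

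Promoters that differed between the lists show the sequence that the antibody reports on. Each is the window from 250 bases before to 50 bases after an annotated start, on the strand of the gene, from RefSeq GRCh38.p14, with CG dinucleotides in capitals. Apart from GALP, ZNF585B, MAGEA4 and RHOU, which the ranking by −log10 q gave, they were picked after their peaks were seen, as imprinted, developmental or germline genes of the lists used further on. A peak in K rep KO and none in WT lay over 6 of them. DIRAS3, an imprinted gene of a small GTPase expressed from the paternal copy, lies at chr1:68050578-68050877 on the minus strand. NAP1L5, also imprinted, lies at chr4:88697780-88698079 on the minus strand. GATA3, a transcription factor of T cell and ear development, lies at chr10:8045083-8045382 on the plus strand. WNT5A, a secreted ligand of non-canonical WNT signalling, lies at chr3:55481349-55481648 on the minus strand. STAG3, a cohesin subunit of meiosis, lies at chr7:100177668-100177967 on the plus strand. GALP, a neuropeptide gene, lies at chr19:56175758-56176057 on the plus strand. The reverse, a WT peak and no K rep KO peak, was found at ZNF585B, a zinc finger gene at chr19:37210487-37210786 on the minus strand, and MAGEA4, a cancer-testis antigen gene at chrX:151918038-151918337 on the plus strand. RHOU, a small GTPase gene at chr1:228644397-228644696 on the plus strand, had a peak in both lists.
DIRAS3: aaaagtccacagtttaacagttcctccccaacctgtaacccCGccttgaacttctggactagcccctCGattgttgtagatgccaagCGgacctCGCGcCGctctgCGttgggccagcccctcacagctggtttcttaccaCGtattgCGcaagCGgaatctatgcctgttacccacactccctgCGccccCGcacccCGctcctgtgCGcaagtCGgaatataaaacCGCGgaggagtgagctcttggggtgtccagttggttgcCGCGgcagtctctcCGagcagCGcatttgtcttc
NAP1L5: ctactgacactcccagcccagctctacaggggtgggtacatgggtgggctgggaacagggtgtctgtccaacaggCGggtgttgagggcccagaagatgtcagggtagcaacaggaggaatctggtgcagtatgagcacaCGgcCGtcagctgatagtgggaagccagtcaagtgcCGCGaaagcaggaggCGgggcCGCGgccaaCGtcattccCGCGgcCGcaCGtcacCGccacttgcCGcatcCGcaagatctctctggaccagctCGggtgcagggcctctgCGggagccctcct
GATA3: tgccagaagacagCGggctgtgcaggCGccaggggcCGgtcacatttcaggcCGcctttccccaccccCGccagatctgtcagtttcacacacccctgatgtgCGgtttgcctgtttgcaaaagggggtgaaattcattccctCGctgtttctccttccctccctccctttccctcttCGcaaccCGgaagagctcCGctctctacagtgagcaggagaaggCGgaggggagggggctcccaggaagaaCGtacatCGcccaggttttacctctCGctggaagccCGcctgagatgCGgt
WNT5A: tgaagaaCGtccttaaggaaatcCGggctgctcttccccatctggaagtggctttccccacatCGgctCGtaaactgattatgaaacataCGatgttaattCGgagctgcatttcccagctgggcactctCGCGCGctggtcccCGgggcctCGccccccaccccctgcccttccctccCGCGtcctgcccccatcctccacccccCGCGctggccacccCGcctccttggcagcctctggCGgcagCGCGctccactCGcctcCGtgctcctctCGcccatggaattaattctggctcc
STAG3: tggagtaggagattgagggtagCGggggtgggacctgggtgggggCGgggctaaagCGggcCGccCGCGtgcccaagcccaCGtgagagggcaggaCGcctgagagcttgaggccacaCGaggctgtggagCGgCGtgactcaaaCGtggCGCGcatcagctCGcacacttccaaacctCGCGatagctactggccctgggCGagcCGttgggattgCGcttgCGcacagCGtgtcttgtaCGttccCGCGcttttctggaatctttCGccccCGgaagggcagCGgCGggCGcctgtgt
GALP: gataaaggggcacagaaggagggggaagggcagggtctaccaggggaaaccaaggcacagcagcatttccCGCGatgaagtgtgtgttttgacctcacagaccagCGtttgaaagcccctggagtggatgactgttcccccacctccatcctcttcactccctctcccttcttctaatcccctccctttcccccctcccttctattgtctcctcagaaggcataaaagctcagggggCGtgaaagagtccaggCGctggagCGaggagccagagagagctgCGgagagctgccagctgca
ZNF585B: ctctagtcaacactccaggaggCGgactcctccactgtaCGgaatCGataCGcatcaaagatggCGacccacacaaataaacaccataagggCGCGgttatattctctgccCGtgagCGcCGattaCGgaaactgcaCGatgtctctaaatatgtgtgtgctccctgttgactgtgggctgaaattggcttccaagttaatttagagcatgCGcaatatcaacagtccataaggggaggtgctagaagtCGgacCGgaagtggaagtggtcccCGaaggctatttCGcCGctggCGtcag
MAGEA4: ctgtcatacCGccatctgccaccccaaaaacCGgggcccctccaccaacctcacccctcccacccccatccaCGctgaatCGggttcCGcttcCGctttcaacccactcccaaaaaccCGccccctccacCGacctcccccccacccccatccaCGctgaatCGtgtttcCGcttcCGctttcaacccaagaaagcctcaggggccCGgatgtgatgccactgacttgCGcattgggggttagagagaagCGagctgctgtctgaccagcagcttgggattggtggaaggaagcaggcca
RHOU: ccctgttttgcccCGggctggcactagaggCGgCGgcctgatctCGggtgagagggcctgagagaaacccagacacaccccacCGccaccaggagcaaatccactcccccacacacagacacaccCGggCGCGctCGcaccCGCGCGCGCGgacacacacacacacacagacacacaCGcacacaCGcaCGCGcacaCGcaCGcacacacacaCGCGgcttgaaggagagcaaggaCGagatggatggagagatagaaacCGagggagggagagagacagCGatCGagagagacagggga

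The DIRAS3 window holds 21 CG dinucleotides and lay wholly inside an 858 bp K rep KO peak (68050091 to 68050948) with a fold enrichment of 6.69. Fold enrichment and −log10 q are the authors' per-peak values, relative to their caller's background, and are used here only within a list. EV and K-KD also had a peak over this window, and K non-rep KO had none. The NAP1L5 window, with 18 CG, was overlapped over 109 bases by a K rep KO peak of fold 5.22, and K-KD alone of the other lists had a peak there. All 300 bases of the WNT5A window, with 22 CG, lay inside a 2056 bp K rep KO peak (55481018 to 55483073, fold 5.09) that EV had as well. At GATA3 (16 CG, 120 bases overlapped, fold 4.75) no other list had a peak. At STAG3 (30 CG, 167 bases, fold 4.35) K non-rep KO was the other list with one. The GALP window holds 7 CG, and the K rep KO peak over 90 of its bases had a fold of 8.43. K non-rep KO also had a peak at GALP, and EV and K-KD had none. The WT peak at ZNF585B (37209945 to 37211045, fold 6.55) covered its whole window with 19 CG, and none of the other 4 lists had a peak there. The WT peak at MAGEA4 covered 259 bases with a fold of 5.53, and EV and K non-rep KO had one too. RHOU, with 26 CG, had a peak in all 5 lists.

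Across all 34961 promoter windows of the table, 819 windows of 749 genes had a K rep KO peak and no WT peak (2.34% of windows), and 82 windows of 75 genes had the reverse (0.235%). Both lists had a peak at 149 windows, and neither did at 33911. Promoters with a K rep KO peak alone held a median of 15 CG in 300 bases (quartiles 11 and 21), those with a WT peak alone 13, those with both 16 and those with neither 14. The classes differed more at the ends of the range than at the median. Fewer than 5 CG were found in 2.44% of the K rep KO only windows, against 10.98% of WT only, 10.1% of both and 30.4% of neither. Windows with 30 or more CG made up 5.98%, 2.44%, 10.1% and 22.98% of these classes. Windows with a peak were thus rarer both among CG-poor and among the most CG-rich promoters. Of 5 motifs searched on both strands, CACGTG, the E-box read by MYC and USF proteins, was in 12.6% of K rep KO only windows (95% Wilson interval 10.5 to 15.0), in 14.6% of WT only windows (8.57 to 23.9), in 11.4% of windows with both and in 7.27% of all promoters. It contains a CG itself, and of the 9 windows printed here the STAG3 window holds it. GGGCGG, the GC box of SP1, was in 46.2% of K rep KO only windows and 45.0% of all. TATAAA was in 7.69% and 11.5%, TGACGTCA, the cyclic AMP response element, in 1.83% and 1.85%, and the NRF1 site in 0.733% and 1.24%.

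Other promoters with a K rep KO peak alone, in order of −log10 q, were those of CCDC200, CYKILR, LOC124902313, TAF11L5, GAGE13, SEMA6A-AS1, GALP and GPRIN2. CYKILR, a long non-coding RNA gene with 33 CG in its window, had a peak in all 3 of EV, K non-rep KO and K-KD, so WT was the list without one. TAF11L5 and GAGE13 are members of repeated gene families, where reads may be placed on the wrong copy. The strongest WT peak at a promoter without a K rep KO peak was over 51 bases of LOC105372861, a long non-coding RNA gene (fold 12.1), and EV had a peak there too. Among the gene lists described further on, developmental transcription factors and germline genes had most such promoters, beside the 2.34% of all windows: GATA2, GATA3, LHX9, PAX6, PAX9, SOX3, TBX1 and TBX5 had 8 windows with a K rep KO peak alone of 83 windows in the first list. PAX6, a regulator of eye development, had another start with a WT peak alone, over 30 bases of its window, and NKX2-2 had both. HOXD10 had a K rep KO peak over 197 bases of its window, which K-KD shared, and HOXA2 had a peak in both lists. Germline genes gave BOLL, BRDT, DPPA2, STAG3 and TDRD1 with 7 windows of 52. In the same list 3 windows, all of MAGEA4, had a WT peak alone, beside 0.235% of all windows. Of these MAGEA4 windows 2 lie under the same WT peak, and EV had a peak at all 3. Another 3 windows, of GAGE1 and SYCP1, had both. The K rep KO peaks over the 7 windows were weak, with −log10 q from 1.66 (DPPA2) to 4.53 (BOLL, over 5 bases). The windows of BRDT lie under the same peak, as do those of TDRD1. Among the developmental factors, the K rep KO peaks at GATA2, PAX6, PAX9, TBX1 and TBX5 had −log10 q of 2.24 to 3.83. Those at GATA3, LHX9 and SOX3 had 5.26 to 6.17. WNT5B, the paralog of WNT5A, had a K rep KO peak alone. Among corepressors, CTBP1 had a 1675 bp K rep KO peak (1250048 to 1251722, fold 5.22) over 2 windows, and no other list had a peak at these. HDAC4 had a weak one (fold 3.05, −log10 q 1.61) at an internal start. No promoter window of the 11p15.5, HP1 and DNA methylation, hedgehog, MAP kinase or innate sensing lists had a peak in either list. The same held for the senescence, housekeeping, olfactory receptor and ribosomal protein lists. Not all members had a window. In the 11p15.5 list 8 of 23 genes did (13 windows), in innate sensing 23 of 36 and in senescence 19 of 28. Beside the 2.34% of all windows, 13 windows without a peak cannot set the 11p15.5 list apart.

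Of the K rep KO peaks, 19688 (33.3%, 95% Wilson interval 32.9 to 33.7) were shared with WT, and 39410 were not. The same overlaps took in 19413 WT peaks, and 11319 WT peaks had no K rep KO peak. Peaks matched nearly 1 to 1: 18505 WT peaks overlapped 1 K rep KO peak and 844 overlapped 2, while 19065 K rep KO peaks overlapped 1 WT peak and 551 overlapped 2. A peak of one list cut into several in the other was thus rare. The shared stretches amounted to 19.5 Mb, which was 43.6% of the K rep KO length and 62.6% of the WT length. Shared peaks had a median width of 989 bp in K rep KO and 990 bp in WT. Unshared peaks were narrower in both lists, with medians of 432 bp and 515 bp. Within K rep KO the median −log10 q was 6.81 for shared and 3.80 for unshared peaks, and within WT it was 6.16 and 3.14.

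**Figure D1:**
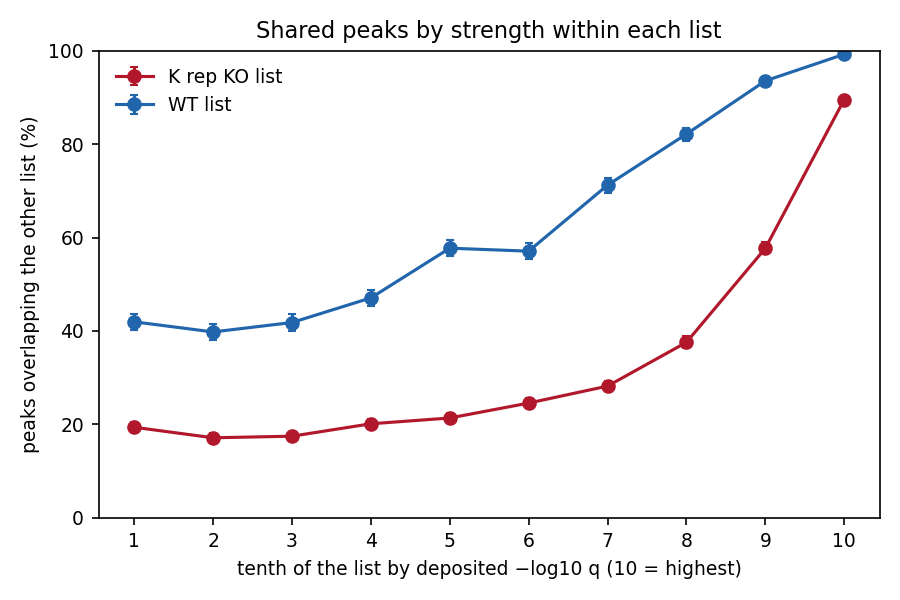
Share of peaks that overlap the other list (y axis, percent) for 10 equal parts of each list ordered by deposited −log10 q (x axis, 10 the highest), K rep KO in red and WT in blue, with 95% Wilson intervals. K rep KO goes from 19.4% in the weakest part to 89.6% in the strongest, and WT from 42.0% to 99.3%.

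Sharing was tied to strength. In the plot of sharing by strength, the 7 weakest of 10 equal parts of the K rep KO list lay between 17.1% and 28.2%, and the next 3 rose to 37.6%, 57.7% and 89.6%. The WT list ran from 39.8% in part 2 to 99.3% in part 10. Nearly every strong WT peak thus had a K rep KO peak over it, and the peaks that set the lists apart were mostly weak and narrow. Peaks up to 400 bp made up 31.9% of the K rep KO list, of which 11.1% were shared, and 17.2% of the WT list, of which 38.0% were shared. Peaks above 1600 bp made up 8.87% and 16.4%, of which 93.0% and 90.9% were shared.

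The lists give no read counts, but the height at each summit could be solved from the deposited fold enrichment and −log10 p. A whole number of fragments was found for 99.96% of K rep KO and 99.92% of WT peaks. Unshared K rep KO peaks had a median of 10 fragments at the summit (quartiles 9 and 13) and shared ones 17 (12 and 26). In WT the medians were 10 and 19. Of the unshared K rep KO peaks 51.0% rested on 10 fragments or fewer, and of the unshared WT peaks 52.3%. The most frequent background, at 15.7% of K rep KO and 17.7% of WT peaks, was taken as genome-wide, and the shortest peak width as the fragment length. The labels give neither. If both hold, the K rep KO immunoprecipitated library was 1.017 times as deep as that of WT. Of the higher backgrounds 49.9% in K rep KO lay on steps of 0.649 fragments, and 46.1% in WT on steps of 0.974. If each list was called against its own input, which is not given in the labels, and a step is the worth of 1 input fragment, the K rep KO input was 1.53 times as deep as the WT input. The part of depth in the peak numbers was not tested.

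Unshared K rep KO peaks lay in the bodies of protein-coding genes, without flanks, for 58.5% (58.0 to 59.0). The share was 40.3% for shared K rep KO peaks, 39.8% for shared WT peaks and 46.4% for unshared WT peaks. Unshared K rep KO peaks also overlapped promoter windows most often, at 1.71% against 0.782%, 0.654% and 0.574%. Of the unshared K rep KO peaks 7.22% began or ended within 1 kb of a WT peak and 42.0% within 10 kb, with a median distance of 14.0 kb. For unshared WT peaks these values were 17.1%, 65.0% and 5.35 kb, but they were measured against the longer list, so the distances cannot be compared. The regions were looked up in the 3 further lists. EV had a peak at 84.6% of shared and 46.0% of unshared K rep KO peaks, K non-rep KO at 77.4% and 26.8%, and K-KD at 70.8% and 28.1%. For WT peaks the values were 85.0% and 40.6% in EV, 77.8% and 29.3% in K non-rep KO, and 71.7% and 24.8% in K-KD.

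The 5 peaks of highest fold without a partner lay on 5 different chromosomes in each list. The K rep KO peak of highest fold enrichment without a WT peak lay in CELF2, a splicing regulator gene (chr10:10767841-10768164, fold 18.3). The next 4 lay 1.03 kb from BRMS1L (chr14:35824416-35825312, 17.8), between coding genes, 42.6 kb from JMY (chr5:79193014-79193575, 16.97), 14.6 kb from the growth factor gene FGF2 (chr4:122811721-122812116, 16.5) and in CFAP97D2 (chr13:114199593-114200170, 16.1). All 5 had a peak in EV and in K non-rep KO. The WT peak of highest fold without a K rep KO peak lay 12.7 kb from GNAQ, a G protein subunit gene (chr9:77703126-77703431, fold 15.7). It was followed by peaks in TRIM26 (chr6:30187655-30188098, 11.4) and NCAPG2, a condensin subunit gene (chr7:158648479-158648961, 11.2). The NCAPG2 peak was in no other list. Shared peaks reached higher: the K rep KO list had a fold of 54.7 at chr16:89211801-89213095, 4.61 kb from ZNF778, and 40.4 in RC3H2, and the WT list had 47.7 in PLS1 and 44.3 in ANKRD11.

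Of the 19974 protein-coding genes, each taken as the gene body and 2 kb on both sides, 12023 had a peak in either list. There were 6617 with a peak in both, 4697 in K rep KO alone and 709 in WT alone. A gene was called higher or lower when log2((K rep KO peaks + 1)/(WT peaks + 1)) reached 1 or −1. By that rule 6668 genes were higher in K rep KO (55.5%) and 783 lower (6.51%), and the median gene stood at 1.00. Among genes with more than 3 peaks in either list, the ratio was also taken from plain peak numbers, with a list at 0 set to 3. The median log2 ratio was then 1.00 as well. Many calls rest on very few peaks, as 2731 of the higher calls were 1 peak against 0 and 622 of the lower calls 0 against 1. Among the 3443 genes with 5 or more peaks in the lists together, 1670 were higher (48.5%) and 24 lower (0.697%). With the K rep KO list cut to its strongest peaks, as many as WT has, 2976 genes were higher and 1996 lower. Of the 123 genes that the rules name, 83 were past the call, and 43 of these kept it in such lists of equal length and 51 at −log10 q 5 or more.

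The genes with most unshared K rep KO peaks were long. MAD1L1, a spindle checkpoint gene (chromosome 7, 1815795 to 2232945), had 89 K rep KO peaks and 17 WT peaks, a ratio of 5.24 (exact 95% interval 3.09 to 9.39). The EV list had 131 there, K non-rep KO 70 and K-KD 86, so WT was the lowest of the 5 lists. Of its K rep KO peaks 77 had no WT peak, and 12 of the 17 WT peaks were shared. RPTOR, the mTORC1 subunit Raptor (chromosome 17, 80544838 to 80966368), held 68 against 18, and EV 103, K non-rep KO 62 and K-KD 83. GSE1, a coiled-coil gene linked to histone demethylase complexes, held 61 and 10, and TBC1D22A, of a Rab GTPase-activating family, 54 and 8. CELSR1, a cadherin of planar cell polarity on the same chromosome 22, held 43 and 8. HDAC4, a class IIa histone deacetylase (chromosome 2, 239048168 to 239401649), had 38 unshared K rep KO peaks over its length and 2 shared, at 37.8 kb and 184 kb from its lower end, and no unshared WT peak. Its WT peaks covered 0.849 kb and its K rep KO peaks 22.4 kb. CUX1, KDM4B, RPS6KA2, DIP2C, RBFOX3 and INPP5A completed the 12 with 37 to 47 peaks against 7 to 17. All 12 held more peaks in each of EV (44 to 131), K non-rep KO (25 to 70) and K-KD (30 to 86) than in WT (2 to 18). WT was also the shortest list, with 30732 peaks against 87815 (EV), 53396 (K non-rep KO) and 53919 (K-KD), and the 12 genes were chosen for peaks that it lacks. In lists of equal length 6 of the 12 kept the call, among them MAD1L1 at 1.15 and HDAC4 at 2.42 on the log2 scale. The 6 that lost it were RPTOR at 0.61, KDM4B at 0.55, RBFOX3 at 0.49, INPP5A at 0.47, DIP2C at 0.22 and CUX1, a homeobox gene, which turned to −0.15.

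**Figure D2:**
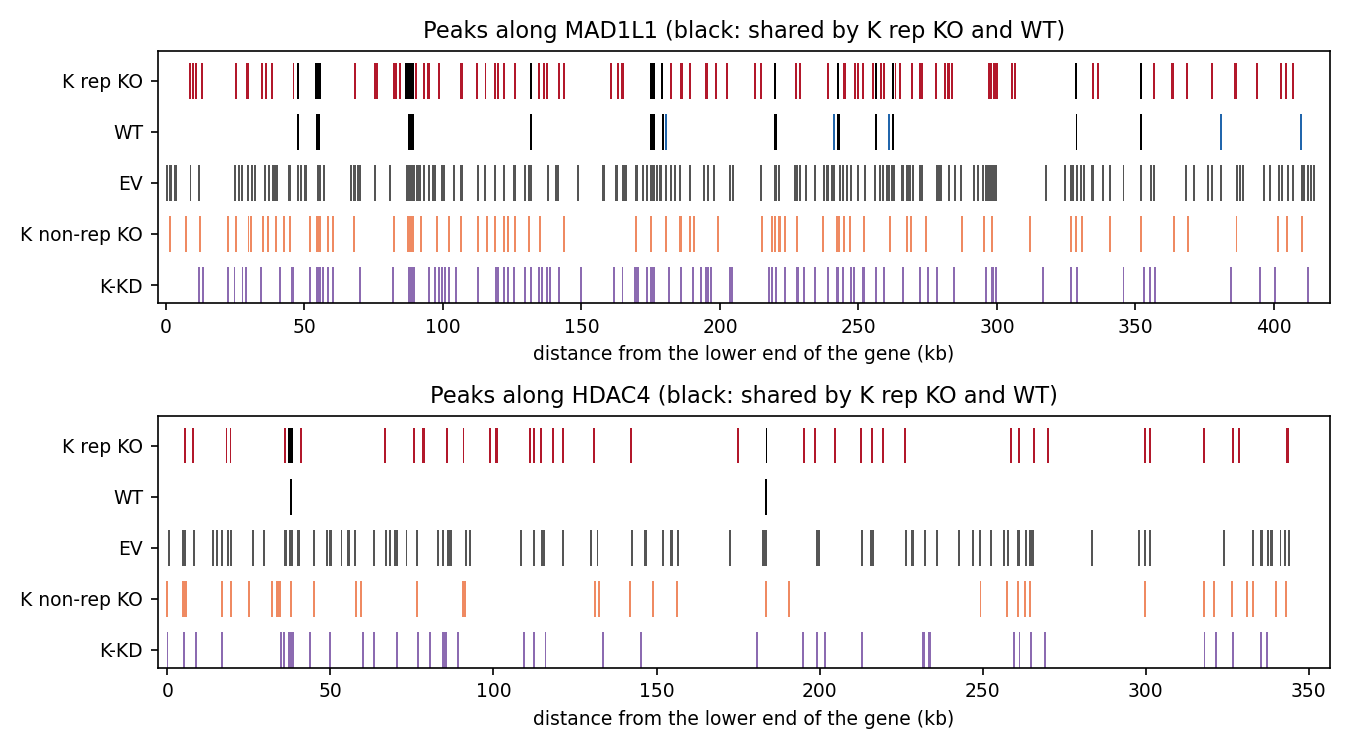
Peaks along MAD1L1 and HDAC4 (x axis, distance from the lower end of the gene in kb) in each of the 5 lists, black where K rep KO and WT share the region and coloured otherwise in these lists. HDAC4 has 2 WT peaks, both shared, and 40 K rep KO peaks along its length, and MAD1L1 has 17 and 89.

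**Figure D3:**
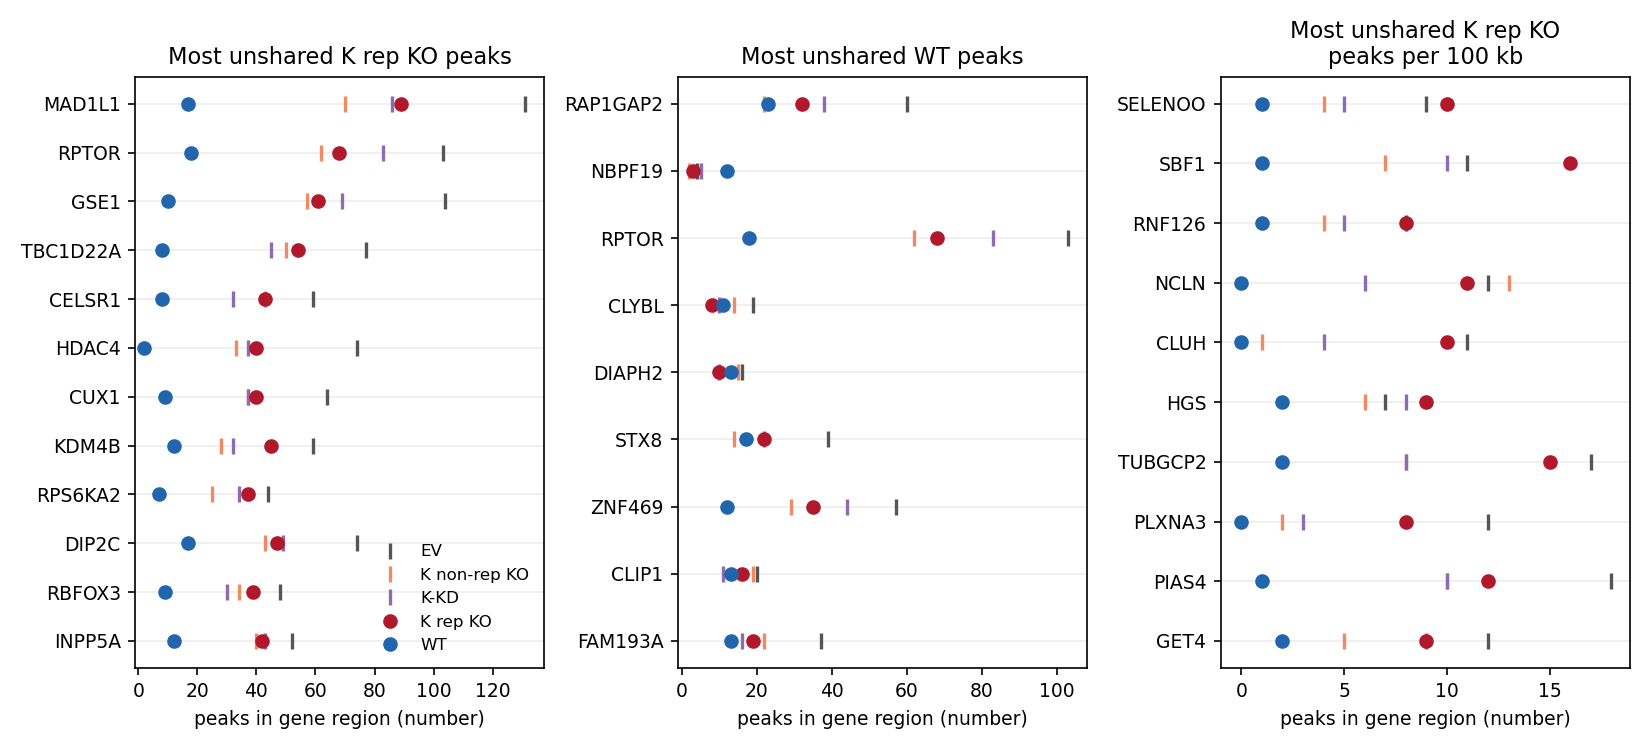
Number of peaks in the gene region (x axis) for genes with most unshared K rep KO peaks, 9 with most unshared WT peaks and 10 with most unshared K rep KO peaks per 100 kb, for K rep KO (red), WT (blue) and, as ticks, EV, K non-rep KO and K-KD. WT is the lowest point for all 12 genes on the left, and K rep KO lies below WT for NBPF19, CLYBL and DIAPH2 in the middle.

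Per length, among genes with 8 or more unshared K rep KO peaks, short genes led. They were chosen for peaks that WT lacks, so high ratios follow from the choice and their intervals are description only. SELENOO, a selenoprotein gene of 20.6 kb with its flanks (chromosome 22, 50201011 to 50217616), held 10 K rep KO peaks, none of them shared, or 48.5 per 100 kb, and 1 WT peak. SBF1, a myotubularin-related gene on the same arm (50445000 to 50475035), held 16 and 1, more than in EV (11), K non-rep KO (7) or K-KD (10). NCLN, of the endoplasmic reticulum Nicalin complex, held 11 and 0 (interval of the ratio from 2.51 upward). CLUH, which binds mRNAs of mitochondrial proteins, held 10 and 0 (from 2.24), and PLXNA3, a semaphorin receptor, 8 and 0 (from 1.71). The ratio over all peaks was 1.92, which the interval of PLXNA3 includes. CLUH held 1 peak in K non-rep KO, 4 in K-KD and 11 in EV, so K rep KO lay near EV there. RNF126, HGS, TUBGCP2, PIAS4 and GET4 held 8 to 15 against 1 or 2. PIAS4, a SUMO ligase gene, stood at −1 among peaks of −log10 q 5 or more, so its excess lay in weak peaks.

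Few genes leaned to WT, the shorter list, with 783 called lower. In lists of equal length 1996 were lower and 2976 higher. RAP1GAP2, a regulator of the GTPase Rap1 (chromosome 17, 2755645 to 3037741), had most unshared WT peaks, 13 of its 23, yet held 32 in K rep KO (ratio 1.39, 0.789 to 2.49). NBPF19 was the gene of this order called lower, with 3 peaks against 12 and 10 of the WT peaks unshared. NBPF genes are near copies of each other, so the placing of its reads is uncertain. CLYBL, a mitochondrial lyase gene, held 8 and 11, and DIAPH2, a formin on the X chromosome, 10 and 13, with intervals that include 1. STX8, CLIP1 and FAM193A each had 7 or 8 unshared WT peaks and held 16 to 22 peaks against 13 to 17. The genes with most shared K rep KO peaks were PTPRN2, a phosphatase-like protein of secretory granules, with 18 shared of 48, GNG7, a G protein gamma subunit, with 16 of 39, and UBE2D2, a ubiquitin-conjugating enzyme, with 14 of 22.

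At the locus of the study, KCNQ1 (chromosome 11, 2445008 to 2849105) held 9 K rep KO peaks, of 290 to 476 bp, and 3 WT peaks. Of these, 1 K rep KO peak (2473434 to 2473909) was shared, and it partly overlapped the WT peak at 2473834 to 2474202. The other lists had 45 (EV), 11 (K non-rep KO) and 14 (K-KD) there. The strongest K rep KO peak (2577359 to 2577670, fold 5.80) lay over an EV peak, and WT had none there. KCNQ1OT1 itself held no K rep KO peak and 1 WT peak, which lies inside KCNQ1 too. Of the 23 genes of this domain and its 11p15.5 neighbours 10 had a peak, and 4 of these were higher. That is 40% (16.8 to 68.7, which includes the 55.5% of all genes). Another 4 were lower, beside 6.51% of all genes, each with a WT peak and no K rep KO peak. The regions of the list held 19 K rep KO and 10 WT peaks in all, so these calls rest on few peaks. At −log10 q 5 or more the list lay 16.0 percentage points above all genes instead. OSBPL5, a lipid transfer protein gene, held 4 and 2, LSP1 2 and 1, and CD81, a tetraspanin gene, 2 and 0. In the lists of equal length KCNQ1 stood at −0.415 on the log2 scale, so its direction did not hold. Imprinted genes elsewhere had 20 of 28 higher (71.4%, 52.9 to 84.7, which includes the 55.5% of all genes) and 1 lower, and at −log10 q 5 or more the list lay 14.3 percentage points below all genes. WDR27 held 22 and 5, and IGF2R, a growth factor receptor gene, 6 and 2. RB1, the tumour suppressor gene with an imprinted start, held 5 and 3.

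Most developmental regulators held more peaks in K rep KO. Against the 55.5% of all genes, of 73 developmental transcription factors outside the HOX clusters 58 had a peak, 48 were higher (82.8%, Wilson interval 71.1 to 90.4) and 1, SIX6, was lower, with a median of 1.22. EBF3, a helix-loop-helix factor of neurons (chromosome 10, 129835233 to 129964274), had 12 K rep KO peaks and no WT peak (interval from 2.78 upward), and EV had 18, K non-rep KO 6 and K-KD 9. SOX13 held 7 and 3 and LHX9 6 and 2. TBX1, a gene of pharyngeal development, held 7 and 0, TBX15 6 and 0, and GATA3 and PAX3 5 and 0 each. PAX6 held 2 and 2. Among members with 5 or more peaks 14 of 15 were higher, against 48.5% of all such genes. HOX genes, which set position along the body axis, had 19 of 23 higher (82.6%, 62.9 to 93.0), but on few peaks, and the overlapping regions of HOXC4, HOXC5 and HOXC6 count the same peaks again: HOXB3 and HOXC4 were highest with 4 each, against 0 and 1, and HOXB5 was lower with 0 against 1. The median was also taken with WT at 0 counted as 3 peaks and genes with at most 3 in both lists left out. It was 1.58 for the 15 remaining developmental factors and 1.21 for 2 HOX genes, against 1.00 over all genes. Genes without a WT peak pass this floor, or that of 5 peaks, through K rep KO peaks alone. These medians and the 14 of 15 are thus description only. With equal-length lists the developmental factors and the HOX genes stayed 26.1 and 32.8 percentage points above all genes.

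**Figure D4:**
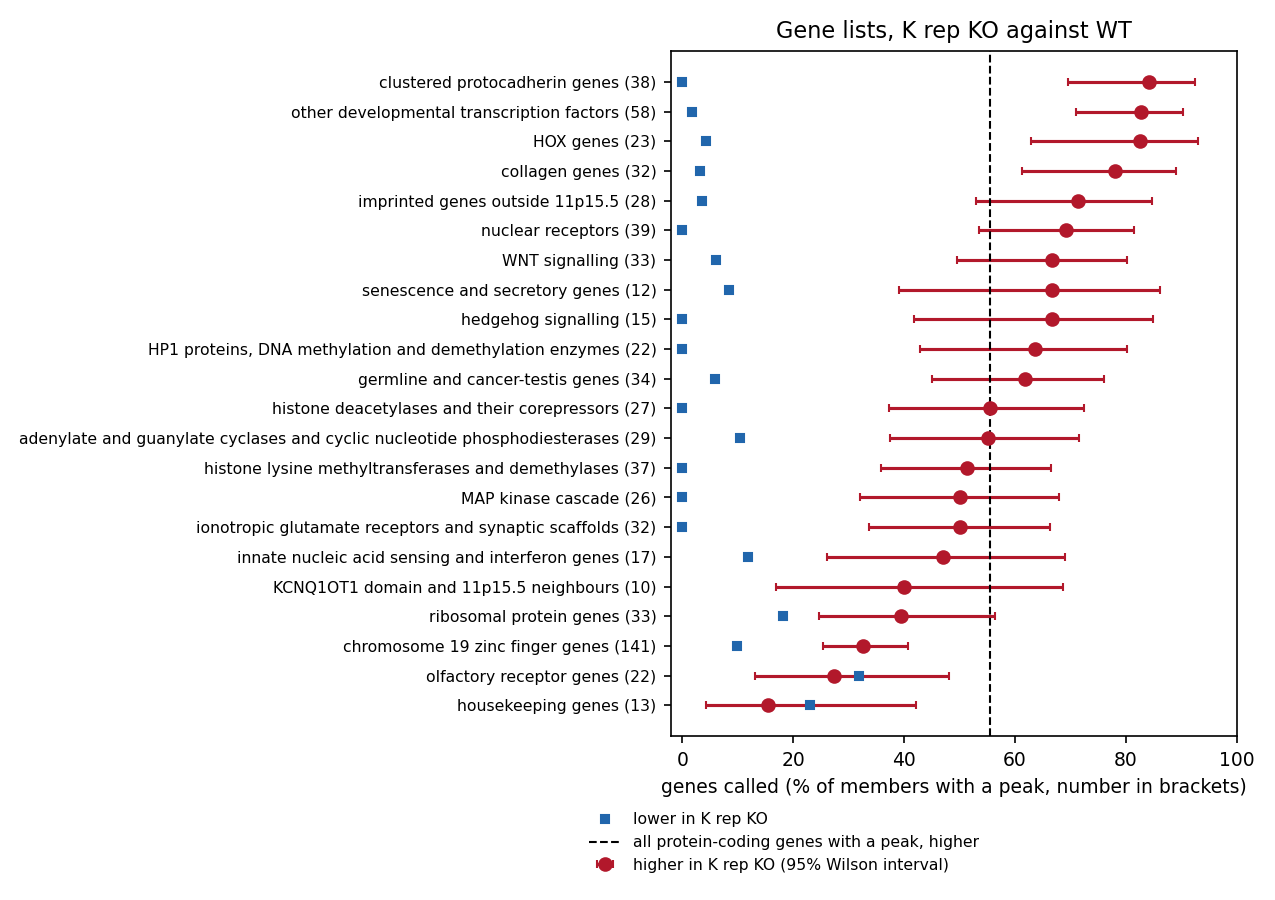
Percent of the members with a peak (number in brackets) called higher in K rep KO (red, 95% Wilson interval) and lower (blue squares) for 22 gene lists, with 55.5%, the share of all protein-coding genes with a peak that were higher, as the dashed line. Protocadherin, developmental, HOX and collagen genes lie above the line with their intervals, and housekeeping, olfactory receptor and chromosome 19 zinc finger genes below.

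Clustered protocadherins, cell surface proteins that give neurons an identity, had 32 of 38 higher and none lower, against 55.5% and 6.51% of all genes. Their regions are nested on chromosome 5 and count the same peaks again: PCDHGA1, PCDHGA2, PCDHGA3 and PCDHGA4 each held the same numbers, 16 in K rep KO and 3 in WT. The list turned below all genes, by 50.7 percentage points, among peaks of −log10 q 5 or more, and by 11.5 in lists of equal length. Collagen genes, of the extracellular matrix, had 25 of 32 higher (78.1%, 61.2 to 89.0) and 1 lower, COL4A4 with 0 and 2. COL5A1 held 23 and 3, COL23A1 26 and 5, COL18A1 26 and 7, COL26A1 14 and 3, and COL6A1 7 and 0. In lists of equal length COL23A1 kept the call, and COL5A1 stood at 0.81, COL18A1 at 0.58 and COL26A1 at 0.58 on the log2 scale.

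Signalling lists lay at 50% to 69.2%, and the intervals of all 5 include the 55.5% of all genes. Of the nuclear receptors 27 of 39 were higher (69.2%, 53.6 to 81.4) and none lower. PPARA, a receptor for fatty acids, held 10 and 2, NR5A2 7 and 1, PPARD 7 and 1, and RARB, a retinoic acid receptor, 6 and 0, whereas NR6A1 held 10 and 6. WNT genes had 22 of 33 higher and 2 lower: GSK3B, the kinase that marks beta-catenin for breakdown, held 8 and 1, AXIN1, its scaffold, 10 and 5, and LRP5, a coreceptor, 9 and 8. For LRP5 the EV list had 40, K non-rep KO 19 and K-KD 22. Hedgehog genes had 10 of 15 higher, with SUFU, an inhibitor of the pathway, at 7 and 5 and KIF7 at 7 and 2. Cyclases and phosphodiesterases of cyclic nucleotides had 16 of 29 higher and 3 lower. ADCY3, an adenylate cyclase, held 12 and 0, ADCY9 14 and 2, and PDE10A 15 and 2, while PDE4A held 7 and 5. In the MAP kinase cascade 13 of 26 were higher, but among members with 5 or more peaks 1 of 9 was: MAP2K2, which encodes MEK2, held 13 and 0. MAPK9, a JNK kinase gene, held 8 and 4 and was not past the call.

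Genes of chromatin itself lay at 51.4% to 63.6%, and the intervals of all these lists include the 55.5% of all genes. Histone deacetylases and corepressors had 15 of 27 higher (55.6%) and none lower, beside 6.51% of all genes lower. The list stood 22.04 percentage points above all genes at −log10 q 5 or more. It stood at 1.61 in lists of equal length and at −4 with fold enrichment of 4 or more. CTBP2, a corepressor that binds many repressors, held 23 and 3, and CTBP1, its paralog, 13 and 4. Histone methyltransferases and demethylases had 19 of 37 higher (51.4%). KDM4B, an H3K9 demethylase gene, held 45 and 12, EHMT1, an H3K9 methyltransferase, 31 and 11, DOT1L, which methylates H3K79, 22 and 6, and KDM2B 20 and 12. In the list of HP1 proteins and DNA methylation enzymes 14 of 22 were higher (63.6%, 42.95 to 80.3). DNMT1, the maintenance methyltransferase, held 11 and 1, DNMT3A 9 and 2, UHRF1, which brings DNMT1 to newly copied DNA, 18 and 8, and TET1, which oxidises methylcytosine, 9 and 5. Most of these genes were no longer past the call in lists of equal length: KDM4B stood at 0.55 on the log2 scale there, EHMT1 at 0.22, DOT1L at 0.78, CTBP1 at 0.26, CTBP2 at 0.58, DNMT3A at 0.42 and UHRF1 at 0, while DNMT1 stood at 1. At −log10 q 5 or more DNMT1 stood at 0, and EHMT1 and DNMT3A at 0.58 each.

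Among the other lists, germline (61.8%, 45.0 to 76.1) and senescence genes (66.7%, 39.1 to 86.2) lay above the 55.5% of all genes and the rest under it. These intervals include 55.5%, as do those of glutamate receptor (33.6 to 66.4), innate sensing (26.2 to 69.0) and ribosomal protein genes (24.7 to 56.3). Germline genes lay below all genes, and innate sensing genes above, both at −log10 q 5 or more and in lists of equal length. Glutamate receptor and scaffold genes had 16 of 32 higher, with SHANK3 at 11 and 3 but DLGAP2 at 8 and 10 and DLGAP1 at 6 and 7. SHANK3 turned to −1 on the log2 scale both at −log10 q 5 or more and in lists of equal length. Germline genes had 21 of 34 higher and 2 lower: MOV10L1, of the piRNA pathway, held 10 and 4 and TEX14 10 and 6. Innate sensing genes had 8 of 17 higher and 2 lower, with SAMHD1 at 8 and 2 and CGAS, the cytosolic DNA sensor, at 4 and 5. Of the senescence genes 8 of 12 were higher and 1 lower; GLB1, the gene of lysosomal beta-galactosidase, held 7 and 1. Chromosome 19 zinc finger genes had 46 of 141 higher (32.6%, 25.4 to 40.7) and 14 lower, and 5 of 26 with 5 or more peaks were higher. ZNF787 held 11 and 2 and ZNF536 10 and 2, against 7 and 4 for ZNF444. Ribosomal protein genes had 13 of 33 higher and 6 lower, olfactory receptor genes 6 of 22 higher and 7 lower, and housekeeping genes 2 of 13 higher and 3 lower. The housekeeping genes higher were RAB7A (7 and 1) and SDHA (3 and 1), and those lower, ACTB, PSMB2 and YWHAZ, held 0 and 1 each. All ribosomal protein genes together held 34 K rep KO and 25 WT peaks, and olfactory receptor genes 22 and 22, so calls there turn on single peaks.

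By chromosome, relative to the ratio of 1.92 over all peaks, chromosome 6 stood at 1.28 (exact 95% interval 1.195 to 1.36) and chromosome 22 at 1.23 (1.15 to 1.32). Chromosome 11 stood at 0.532 (0.492 to 0.575) and chromosome 18 at 0.560 (0.514 to 0.610). The remaining 19 lay between 0.846 and 1.11. The 2 low chromosomes differed in kind. On chromosome 11, 49.4% of WT peaks were shared (46.7 to 52.1), the lowest share of any chromosome, and unshared peaks were about as many in K rep KO (665) as in WT (653). On chromosome 18, 74.4% of WT peaks were shared (71.6 to 76.9), the highest share, and 68.5% of K rep KO peaks were shared as well, with 352 and 266 unshared. On chromosome 22 there were 4.92 unshared K rep KO peaks for each unshared WT peak. By covered length chromosome 11 stood at 0.624 and chromosome 18 at 0.720.

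**Figure D5:**
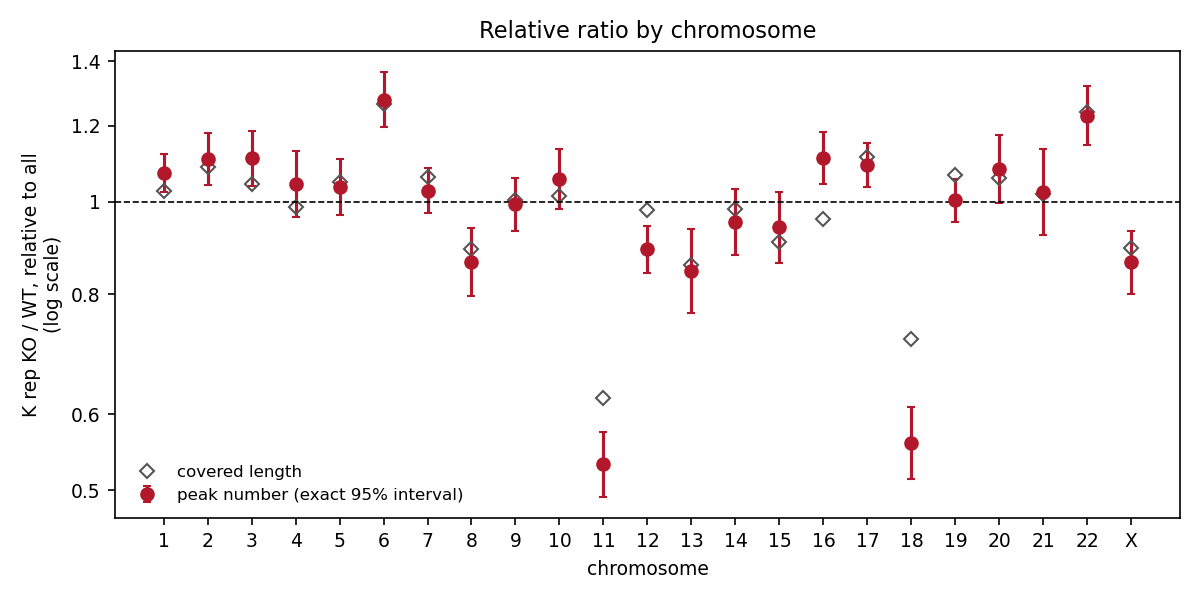
Ratio of K rep KO to WT on each chromosome divided by the ratio over all (y axis, log scale), by peak number (red, exact 95% interval) and by covered length (open diamonds). Chromosomes 11 and 18 lie apart at 0.532 and 0.560, and 6 and 22 are highest at 1.28 and 1.23.

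Within 1 Mb windows, 1148 held 20 or more peaks of both lists together. Of these 66 had a relative ratio of 0.5 or less, and 15 of the 66 were on chromosome 11, out of its 37 windows. The lowest were chromosome 11 at 107 to 108 Mb and at 119 to 120 Mb, with 7 K rep KO peaks and 15 WT peaks each. The first window spans GUCY1A2 and CWF19L2, and the second CBL and THY1. EV held 21 and 45 peaks in them. Next came 2 windows with few genes, chromosome 11 at 54 to 55 Mb (18 and 36 peaks) and chromosome 15 at 18 to 19 Mb (35 and 65), and chromosome 4 at 40 to 41 Mb (14 and 26). A relative ratio of 2 or more was found in 102 windows. Chromosome 21 at 32 to 33 Mb, with HUNK, SYNJ1 and EVA1C, held 26 K rep KO peaks and 2 WT peaks, and chromosome 1 at 116 to 117 Mb, with CD58, also 26 and 2. Chromosome 17 at 56 to 57 Mb, with NOG, an inhibitor of BMP signalling, held 20 and 2, with 3 in K-KD and 20 in EV. Chromosome 14 at 99 to 100 Mb, with BCL11B and SETD3, held 49 and 6.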

How the data were processed

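MeDIP-seq peaks of HEK293T cells were compared between K rep KO and WT, 1 list each. Bowtie2, MACS2 and deepTools were used with GRCh38 per the submitters' processing notes; no settings are given. Per-peak values deposited by the authors are fold enrichment (a ratio), −log10 p and −log10 q; the lowest −log10 q was 1.30. Here peaks on other sequences (4.10% and 5.83% of the lists) were left out, starts made 1-based, and overlaps, gene regions (RefSeq GRCh38.p14) and promoter windows counted with Python 3.11.15, pandas 2.3.3 and scipy 1.17.1. The lists give no read depth; summit heights were solved with a tolerance of 0.001 in −log10 p, taking fold as (height + 1)/(background + 1) and p from the Poisson distribution above the height, which recovered known heights in simulated data. Neighbouring peaks are not independent, so intervals are too narrow.

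The genes named are the 12, 10 and 8 with most unshared K rep KO, unshared WT and shared peaks, the 10 with most unshared K rep KO peaks per 100 kb among those with 8 or more, up to 4 per gene list by peak number, and further list members chosen after their values were seen. Promoters, peaks and windows named were taken from the 8 and 6, the 5 and the 5 at the ends of their order, and further promoters of list members were chosen after their values were seen. The members and gene lists were chosen with earlier results of these data known. All but 1 of the listed genes (DAZ1) were found. One further peak list matched no sample label and was not used. Some genes that these rules name are not reported here.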

Additional observations from a re-analysis of the deposited data

Results flagged for a closer look

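On sequences other than the chromosomes compared, the K rep KO list held 2525 peaks and the WT list 1902, a ratio of 1.33 (exact 95% interval 1.25 to 1.41) against 1.92 on chromosomes 1 to 22 and X. These peaks enter none of the comparisons.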

How the results depend on the processing

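With 1 list per condition no library could be left out, and depth is known only through the peaks. No paired analysis was possible because each condition has 1 list and the labels carry no replicate numbers. Values here follow the order of the comparisons: the ratio of peak numbers was 1.92, that of covered length 1.44, shared peaks 33.3% and 63.2% of the lists, and genes called 6668 higher (55.5%) and 783 lower. Keeping fold enrichment of 4 or more gave 2.31, 1.66, 25.9% and 58.9%, 60% of genes higher, and 44 promoters with a WT peak alone and 90 with both. Keeping −log10 q of 5 or more gave 1.74, 1.33, 38.4% and 66.6%, 3844 genes higher (50.7%), 298, 19 and 93 promoters with a K rep KO peak alone, a WT peak alone and both, and 0.611 for chromosome 18. With the K rep KO list cut to the number of WT peaks, so that the ratio is 1 by construction, covered length turned to 0.948, sharing was 46.5% and 47.4%, 2976 genes were higher (30.4%) and 1996 lower, 383 promoters had a K rep KO peak alone, and chromosomes 11 and 18 stood at 0.460 and 0.638. Covered length gave 0.624 and 0.720 for these. Overlap of at least 50% of the peak gave 28.5% and 54.2% shared, and a summit inside the other peak 28.6% and 56.5%. Genes with 5 or more peaks gave 1670 higher (48.5%) and 24 lower. On the log2 scale GRIN2D turned to −0.415, PIAS4 to −1, SHANK3 to −1 and TCF7L1 to −0.585 at −log10 q 5 or more, and CUX1 to −0.152, KCNQ1 to −0.415, SHANK3 to −1 and TEX11 to −0.415 in lists of equal length. The protocadherin list turned to −50.7 and −11.5 percentage points from all genes in these settings. In all, 7 of 22 lists changed side at −log10 q 5 or more, among them imprinted genes (15.97 to −14.3), the 11p15.5 genes (−15.5 to 15.98), HP1 and DNA methylation (8.18 to −3.63), germline (6.30 to −3.07), innate sensing (−8.40 to 9.31) and cyclases (−0.29 to 10.4). In lists of equal length 4 did: protocadherins, HP1 and DNA methylation (−2.61), germline (−3.47) and innate sensing (0.38). With 5 or more peaks, an alternative added after seeing the data, the housekeeping list turned to 1.496 points above all genes, on 2 genes. The cause of these shifts was not tested. Of 123 named genes, 77 kept their side of the call and direction in lists of equal length and 83 at −log10 q 5 or more. Joining peaks within 500 bp or using the gene body alone reversed none of the 123 genes and none of the 22 lists, and adding 0.5 in place of 1 reversed none of the 123 genes.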
